A study of Mus musculus with 18 samples.

Results

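Chemokine ligands and their receptors were followed across kidney cortex after a tubule toxin, in mice with and without Klf15 in the proximal tubule. The members are the rows of the RPKM matrix whose gene name starts with Ccl, Cxcl, Cx3cl, Xcl, Ccr, Cxcr, Cx3cr or Xcr and a number. This gave 58 of 24062 genes, of which 39 are ligands and 19 are receptors. RPKM is the read density per transcript length and per library depth, so levels can be set side by side between genes. Klf15PTKO mice (PTKO) carry a deletion of Klf15, a zinc finger transcription factor, in the proximal tubule, and Klf15fl/fl mice (fl/fl) carry the floxed alleles. All were C57Bl/6. Each genotype had a vehicle group (DMSO), a group given aristolochic acid I for 2 weeks (AA 2wk) and a group given the same course followed by 2 weeks for remodeling (AA 4wk), with 3 libraries in each of the 6 groups. Neither the Cre line nor the exons of Klf15 removed are stated in these sources, and no group carries Cre with intact Klf15, so Cre and the loss of Klf15 cannot be told apart. At which week the DMSO cortex was taken is not labelled, and the same DMSO libraries serve both toxin courses of their genotype. Nothing in the labels says that the 3 libraries of a group came from separate mice, so p-values measure the spread between these samples only.

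Chemokines are small proteins that steer the movement of leukocytes, and most are secreted while Cx3cl1 and Cxcl16 are made as membrane-tethered proteins that can be shed. They act through receptors coupled to inhibitory G proteins, and many ligands share a receptor. In the injured kidney, tubule cells, endothelium and resident macrophages release chemokines that draw in monocytes through Ccr2, neutrophils through Cxcr2 and activated T cells through Cxcr3. Homeostatic ligands such as Cxcl12, Ccl19 and Ccl25 are instead made in tissues at rest.

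The libraries held 10980643 to 21922497 reads, recovered from the steps between RPKM values. Klf15 was at 28.5, 31.9 and 32.6 RPKM in PTKO DMSO libraries, against 53.0, 61.3 and 65.5 in fl/fl DMSO libraries. Every PTKO library was below every fl/fl library here, although the log2 difference of -0.93 ± 0.26 did not pass the test over all genes (adjusted p = 0.595). At AA 2wk the genotypes overlapped, with 12.5, 17.5 and 25.6 RPKM in PTKO, against 22.9, 18.6 and 41.3 in fl/fl (-0.52 ± 0.26, adjusted p = 0.763). At AA 4wk Klf15 had 9.11, 8.81 and 9.53 RPKM in PTKO, against 11.6, 14.6 and 18.8 in fl/fl (-0.63 ± 0.26, 0.812), all below the PTKO DMSO libraries. It fell after the toxin in both genotypes at both times. Proximal tubule markers, a check of the labelled tissue, summed to 5389 to 6033 RPKM in PTKO DMSO libraries, 1447 to 3604 in PTKO AA 2wk and 864 to 1429 in PTKO AA 4wk, and to 5403 to 6223, 1525 to 2831 and 1716 to 2038 in the same groups of fl/fl. Library number 3 stood apart from the other 2 in the AA 2wk group of each genotype. It was the lowest of its group for 39 of the 42 tested members in PTKO, against 63.3% of all genes tested, and for 37 of 42 in fl/fl, against 50.6% of all genes. Its median log2 difference from the other libraries of the group over the members was -1.35 in PTKO and -1.50 in fl/fl, against -0.22 and -0.08 over all genes. Counts are therefore given with and without both libraries.

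Of the 58 members, 42 reached 1 RPKM in at least 3 of the 18 libraries and were tested, 31 of the 39 ligands and 11 of the 19 receptors. The lymphoid ligands Ccl21a, Ccl21b and Ccl21c, together with Ccl27b and Ccl26, are listed at 0 in all 18 libraries, where a count of 0 allows up to 3 reads per library, or 0.137 to 0.273 RPM. Ccl21a, Ccl21b, Ccl21c, Ccl27a, Ccl27b and Ccl19 have near-identical copies in the mouse genome, so their reads could be split between copies. The other 11 untested members had low values throughout. They include the neutrophil receptors Cxcr1 and Cxcr2, the eosinophil receptor Ccr3, the gut homing receptor Ccr9, the B cell receptor Cxcr5, and Ccr6, Ccr10 and Ccr1l1. Among ligands they are the neutrophil attractant Cxcl3, the eotaxin Ccl24 and Cxcl15. The lack of a test for these is a matter of level, and Cxcr2 did not exceed 0.595 RPKM in any library. In DMSO libraries 15 members, 12 ligands and 3 receptors, reached 1 RPKM in at least 3 libraries. The other 27 tested members passed the filter through toxin libraries, so a difference from DMSO was built into their choice. They are 19 ligands and 8 receptors, among them Ccl2, Ccl12, Ccl8, Ccl9, Ccl17, Cxcl1, Ccl20, Cxcl13, Cxcr3 and Ccr8, and their fold changes and p-values against DMSO are given as descriptions.

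**Figure D1:**
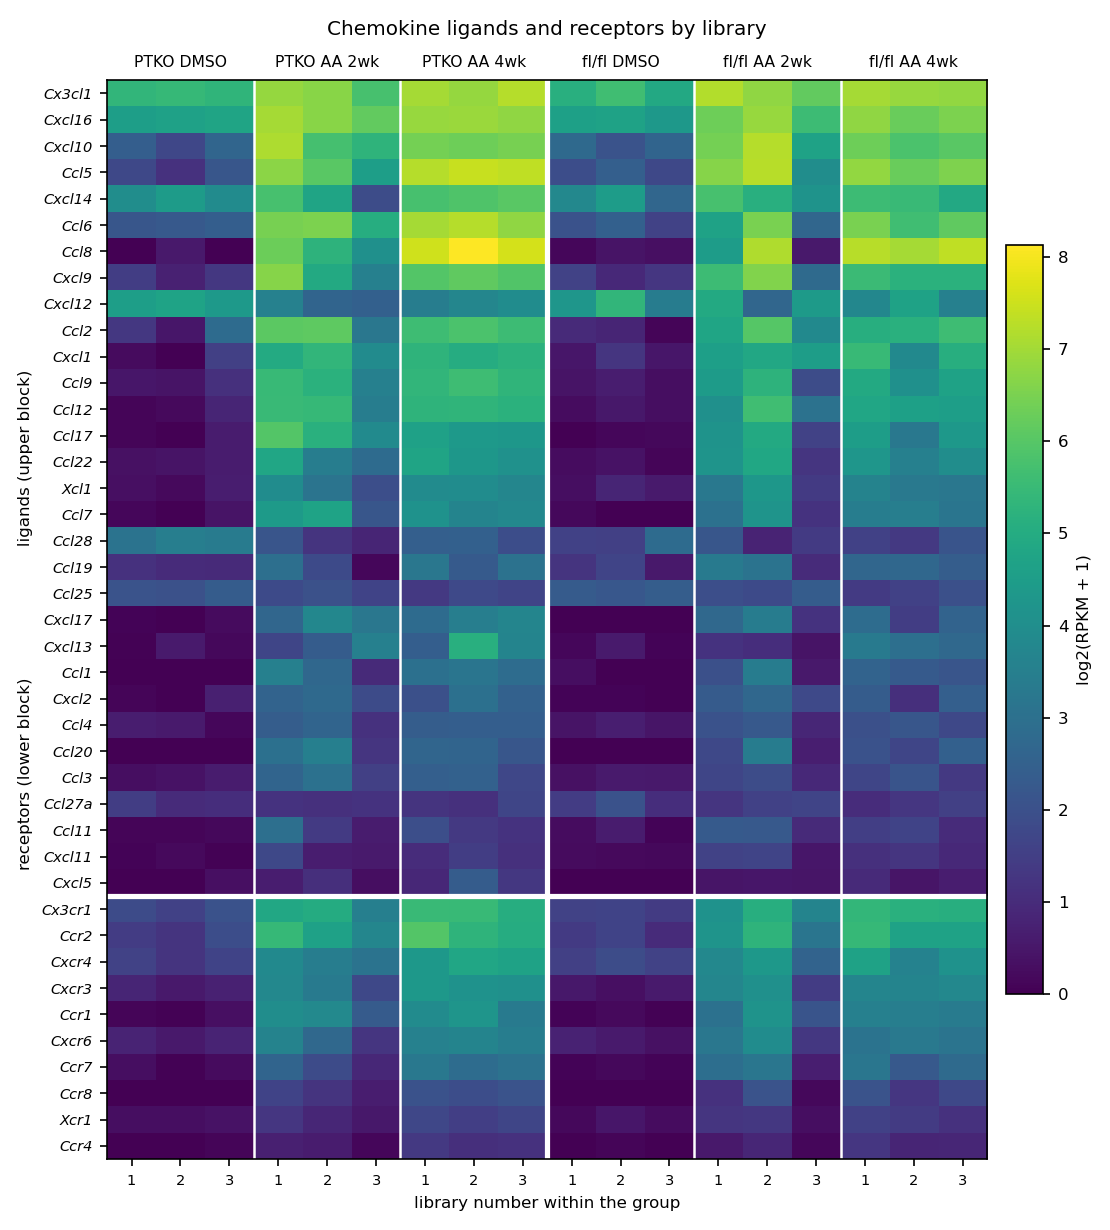
Heat map of log2(RPKM + 1) for tested members (ligands above the white line, receptors below, each ordered by mean) in 18 libraries, with PTKO groups left of fl/fl groups. DMSO columns are dark except for Cx3cl1, Cxcl16, Cxcl12, Cxcl14 and a few others, toxin columns are lighter for most rows, and AA 2wk library number 3 is darker than its neighbours in both genotypes.

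The ligand RNA was spread over more genes after the toxin. The 3 highest ligands of a library held 37.9% to 43.3% of the summed ligand RPKM in PTKO AA 4wk libraries and 38.6% to 41.8% in fl/fl AA 4wk libraries, against 58.9% to 65.7% in PTKO DMSO libraries and 64.8% to 68.0% in fl/fl DMSO libraries. Summed ligand RPKM was 138 ± 6.86 in PTKO DMSO, 792 ± 417 in PTKO AA 2wk and 1277 ± 91.1 in PTKO AA 4wk (SD, n = 3 each). In fl/fl it was 124 ± 39.1 in DMSO, 755 ± 472 in AA 2wk and 891 ± 123 in AA 4wk. Receptors were lower by level in every group, and their summed RPKM was 9.78 ± 2.60 in PTKO DMSO, 106 ± 55.6 in PTKO AA 2wk and 189.6 ± 28.5 in PTKO AA 4wk. In fl/fl the receptor sum was 8.40 ± 1.55 in DMSO, 102 ± 69.5 in AA 2wk and 144 ± 26.0 in AA 4wk. The ratio of ligand to receptor sums was 11.7 to 19.7 in PTKO DMSO libraries, 7.06 to 7.84 in PTKO AA 2wk and 5.72 to 7.78 in PTKO AA 4wk, and 12.8 to 16.5, 6.99 to 7.98 and 5.85 to 6.78 in the same groups of fl/fl. Toxin and vehicle libraries did not overlap in this ratio in either genotype. The receptor sum thus stood further above its vehicle level than the ligand sum did. Sums are weighted by the highest genes, and medians over tested members, a description, did not all go this way. At AA 2wk the median log2 fold change against DMSO was 2.40 for ligands and 1.97 for receptors in PTKO. In fl/fl it was 1.95 and 2.25. At AA 4wk these medians were 3.01 and 3.11 in PTKO and 2.25 and 2.64 in fl/fl. In whole tissue, more cells of a type and more RNA per cell cannot be told apart.

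**Figure D2:**
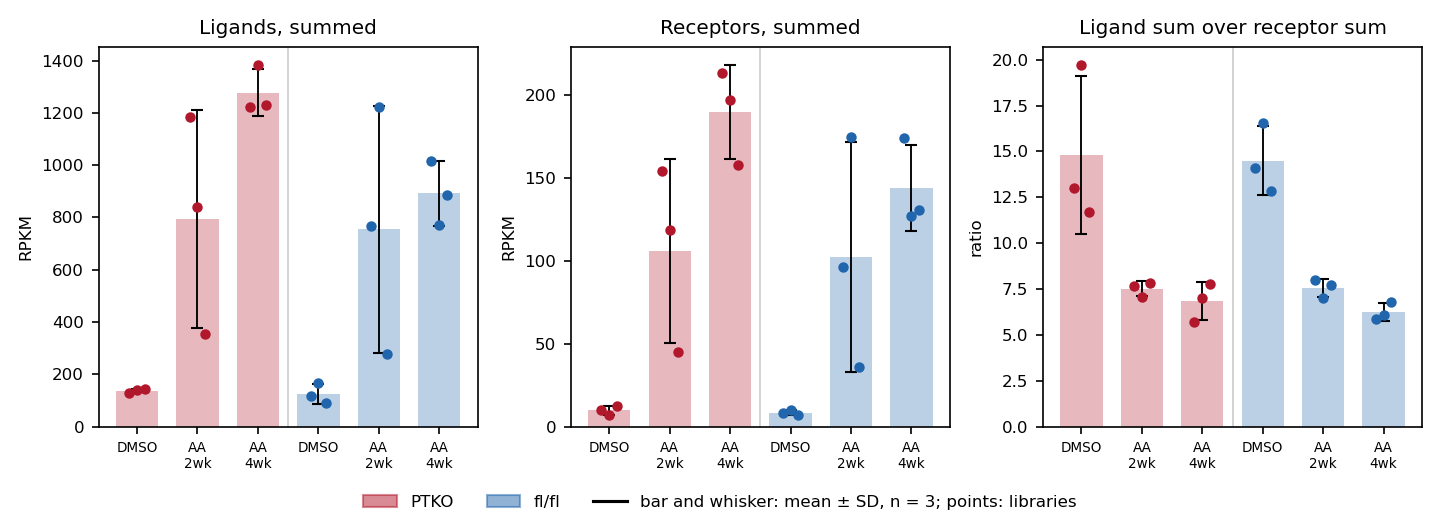
Summed RPKM of ligands (left) and receptors (middle) and the ratio of these sums (right) in each library, with PTKO groups left of fl/fl groups. Bars are means with SD (n = 3) and points are libraries; the ratio lies at 5.72 to 7.98 in toxin libraries and at 11.7 to 19.7 in DMSO libraries.

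After 2 weeks of toxin the 3 receptors that pass the level filter in DMSO libraries alone, Ccr2, Cx3cr1 and Cxcr4, rose in both genotypes, while ligands were divided. Of the 12 ligands that pass there, 6 rose and 2 fell in PTKO, and 6 rose and 0 fell in fl/fl. Among all genes that pass there, 42.3% rose and 16.5% fell in PTKO and 46.8% rose and 14.1% fell in fl/fl, so the share of ligands that rose was near that of all genes. The ligands that rose in both genotypes were Cx3cl1, Cxcl16, Ccl5, Ccl6, Cxcl9 and Cxcl10. The median log2 fold change of these 12 ligands was 0.83 in PTKO and 1.43 in fl/fl and that of the 3 receptors 2.63 and 2.75, against 0.23 and 0.27 over all genes that pass in DMSO libraries.

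Over all 42 tested members the counts at AA 2wk include the 27 that passed through toxin libraries and are a description. In PTKO cortex 37 of 42 tested members were called, beside 60.2% of all genes tested. Of these 35 rose (24 of 31 ligands and 11 of 11 receptors), beside 45.9%, and 2 ligands fell, beside 14.3%. In fl/fl cortex 34 of 42 were called, beside 62.6% of all genes, and all of them rose (23 ligands and 11 receptors), beside 50.4%. By limma none fell, beside 12.2%. All 34 members at an unadjusted p under 0.05 were those higher ones, beside 9060 of 13624 genes at that threshold in either direction. Lower calls among members numbered 0 with voom on the recovered reads, 1 with median-of-ratios scaling and 3 with quantile normalization. The shares of all genes lower under these settings are not given here. All toxin libraries lay above all vehicle libraries for 35 members in PTKO, beside 46.9% of all genes, and for 34 in fl/fl, beside 51.0%, and all lay below for 2 in PTKO, beside 16.0%. Without both libraries numbered 3 the calls were 40 in PTKO, beside 70.1% of all genes, and 37 in fl/fl, beside 68.5%. The median log2 fold change over the members was 2.25 in PTKO and 2.20 in fl/fl, against 0.29 and 0.33 over all genes tested. With members that are at 0 in all DMSO libraries set to their lower bounds (3 reads per library) these medians were 2.44 and 2.29. The bounds are ratios of RPKM without the added 1, so these medians mix both scales and cannot be set against the others.

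At AA 4wk, after the toxin had been stopped for 2 weeks, Ccr2, Cx3cr1 and Cxcr4 were again higher in both genotypes. Of the 12 ligands that pass in DMSO libraries alone, 8 rose and 2 fell in PTKO, beside 50.2% and 20% of all such genes, and 6 rose and 1 fell in fl/fl, beside 47.4% and 16.6%. Their median log2 fold change was 1.79 in PTKO and 1.67 in fl/fl and that of the 3 receptors 3.52 and 3.598, against 0.30 and 0.27 over all such genes. Over all 42 tested members, again as a description, 40 were called in PTKO, beside 72.2% of all genes tested. Of these 38 rose, 27 of 31 ligands and 11 of 11 receptors, beside 55.0%, and 2 ligands fell, beside 17.3%. In fl/fl 36 of 42 were called, beside 66.3%, of which 35 rose, 24 ligands and 11 receptors, beside 51.9%, and 1 ligand fell, beside 14.3%. All AA 4wk libraries lay above all vehicle libraries for 38 members in PTKO, beside 60.5%, and for 38 in fl/fl, beside 55.6%, and below for 3 in PTKO, beside 19.9%, and 1 in fl/fl, beside 16.6%. Without both AA 2wk libraries numbered 3, which also feed the shared spread, the counts were 40 in PTKO, beside 76.4%, and 39 in fl/fl, beside 71.7%. The median log2 fold change was 3.06 in PTKO and 2.53 in fl/fl, against 0.40 and 0.35 over all genes. With members at 0 in DMSO set to their bounds it was 3.47 and 2.78, on the same mixed scale as above. Both time points share their DMSO libraries, so their agreement is not independent.

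The median of all genes depends on the scaling. It was 0.29 to 0.40 in the 4 toxin comparisons as deposited, 0.00 to 0.03 with median-of-ratios scaling and -0.08 to -0.04 with quantile normalization, and the share of higher genes among all calls was 76.1% to 80.5% as deposited, 49.9% to 50.8% and 43.8% to 46.7%. With median-of-ratios scaling 33 members rose and 3 fell at AA 2wk in PTKO, 34 and 1 at AA 2wk in fl/fl, 37 and 3 at AA 4wk in PTKO, and 35 and 1 at AA 4wk in fl/fl. With quantile normalization the counts were 31 and 3, 28 and 3, 34 and 3, and 31 and 3 in the same order. The shares of all genes called higher or lower under either scaling are not given here, so these counts are a description. No called member changed sign under either scaling.

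**Figure D3:**
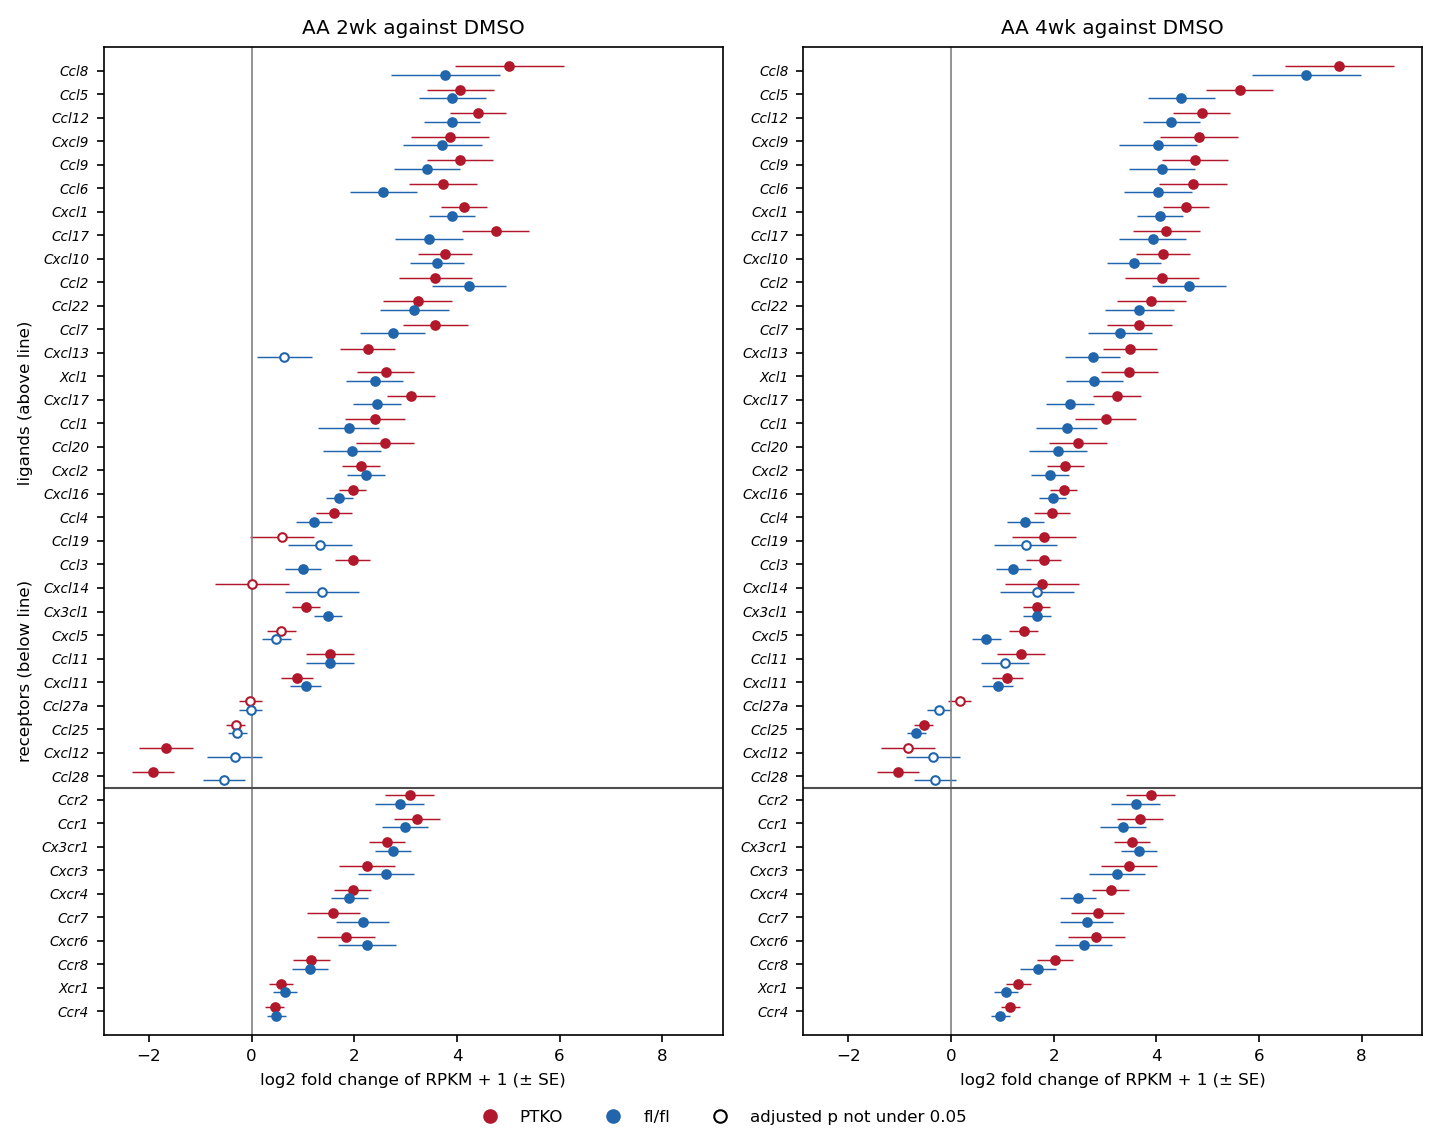
Log2 fold change of RPKM + 1 (horizontal axis, with SE) for tested members at AA 2wk (left) and AA 4wk (right) against DMSO, in PTKO and fl/fl. Filled points have an adjusted p under 0.05; the receptors shown are filled in every comparison, and Ccl28, Cxcl12, Ccl25, Ccl27a and a few other ligands lie near or below 0.

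The ligands of Ccr2, which brings classical monocytes out of the blood, rose together with their receptor. Ccl2, the main monocyte attractant, had 1.47, 0.404 and 6.24 RPKM in PTKO DMSO libraries, 66.2, 67.9 and 8.298 in PTKO AA 2wk libraries and 47.2, 55.5 and 46.7 in PTKO AA 4wk libraries. In fl/fl libraries Ccl2 was at 0.963, 0.784 and 0.0784 RPKM in DMSO, 26.2, 62.7 and 13.6 in AA 2wk and 32.8, 34.5 and 47.5 in AA 4wk. All toxin libraries lay above all vehicle libraries of their genotype, and PTKO DMSO number 3, at 6.24 RPKM, was the highest vehicle library. Ccl2 rose by 3.58 ± 0.71 (log2, SE, adjusted p = 0.000706) in PTKO and 4.24 ± 0.71 in fl/fl (0.000185) at AA 2wk, and by 4.11 ± 0.71 (0.000131) and 4.64 ± 0.71 (6.3e-05) at AA 4wk. Ccl12, a mouse ligand of the same receptor, had 0.0851, 0.152 and 0.782 RPKM in PTKO DMSO, 44.4, 42.9 and 9.77 in PTKO AA 2wk and 37.8, 39.1 and 35.7 in PTKO AA 4wk. Its fl/fl values were 0.207, 0.429 and 0.236 RPKM in DMSO, 15.98, 49.01 and 7.34 in AA 2wk and 26.9, 23.8 and 22.3 in AA 4wk. The lowest toxin library had 7.34 RPKM of Ccl12, and no vehicle library reached 1 RPKM. Its log2 fold change was 4.41 ± 0.55 in PTKO (1.76e-05) and 3.9 ± 0.55 in fl/fl (4.37e-05) at AA 2wk, and 4.88 ± 0.55 (3.13e-06) and 4.295 ± 0.55 (1.26e-05) at AA 4wk. Ccl7, the other ligand of this receptor, also rose in all 4 comparisons, by 2.75 to 3.67.

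Over all 18 libraries Ccr2 had the highest mean level of the 19 receptors, 20.9 RPKM, with Cx3cr1 close to it at 20.7. By group mean Cx3cr1 was the higher in some groups, among them PTKO DMSO and fl/fl AA 4wk. Ccr2 was at 1.73, 1.34 and 2.78 RPKM in PTKO DMSO libraries, 42.3, 24.2 and 12.3 in PTKO AA 2wk and 61.2, 37.7 and 31.6 in PTKO AA 4wk. In fl/fl it was at 1.61, 2.11 and 1.003 RPKM in DMSO, 17.6, 38.3 and 8.01 in AA 2wk and 43.01, 24.7 and 24.4 in AA 4wk. The lowest toxin library had 8.01 RPKM and the highest vehicle library 2.78. Ccr2 rose by 3.08 ± 0.48 in PTKO (0.000108) and 2.89 ± 0.48 in fl/fl (0.000163) at AA 2wk, and by 3.89 ± 0.48 (6.88e-06) and 3.598 ± 0.48 (1.83e-05) at AA 4wk. Beside it, macrophage and monocyte markers summed to 74.8 to 116 RPKM in PTKO DMSO libraries, 816 to 2329.5 in PTKO AA 2wk and 3018 to 4282 in PTKO AA 4wk, and to 59.9 to 96.3, 388 to 2573 and 1869.5 to 2857 in the same groups of fl/fl, with no marker of the list at 0. The part of these cells in the chemokine values was not tested. In RefSeq (GRCm38.p6) Ccl2, Ccl7, Ccl11, Ccl12, Ccl8 and Ccl1 lie side by side at chr11:82035577-82179812, a span of 144 kb. All 6 passed the level filter through toxin libraries, so their calls are a description. At AA 2wk all 6 rose in both genotypes, beside 45.9% of all genes tested in PTKO and 50.4% in fl/fl. At AA 4wk 6 rose in PTKO, beside 55.0%, and 5 in fl/fl, beside 51.9%.

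Ccl8, in the mouse an agonist of Ccr8, showed the largest changes at AA 4wk. PTKO libraries had 0, 0.478 and 0 RPKM in DMSO, 77.5, 36.9 and 15.9 in AA 2wk and 184, 279 and 194 in AA 4wk. The fl/fl libraries had 0.108, 0.337 and 0.247 RPKM in DMSO, 21.3, 141 and 0.471 in AA 2wk and 153, 130.0 and 161 in AA 4wk. The fl/fl AA 2wk libraries spread from 0.471 to 141 RPKM, the lowest of them close to the highest vehicle library of that genotype at 0.337, while no AA 4wk library of either genotype was under 130.0 RPKM. At AA 2wk it rose by 5.02 ± 1.06 in PTKO (0.00108) and 3.77 ± 1.06 in fl/fl (0.00667), and at AA 4wk by 7.57 ± 1.06 (2.02e-05) and 6.92 ± 1.06 (6.1e-05). The AA 2wk value of fl/fl was 5.52 without library number 3 and 2.22 without number 2, and its call was lost with voom on the recovered reads (adjusted p = 0.098) and in a fit of the compared groups alone (0.0741). Ccl1, the other Ccr8 agonist, was at 6.99, 7.97 and 6.31 RPKM in PTKO AA 4wk and 5.04, 3.92 and 3.46 in fl/fl AA 4wk, against 0 in all 3 in PTKO DMSO and 0.219, 0 and 0 in fl/fl DMSO. It rose in all 4 toxin comparisons, at least 14.7-fold at AA 4wk in PTKO, where every DMSO library was at 0. Ccr8 itself, a receptor of regulatory and Th2 T cells, was at 0 in all 6 DMSO libraries and had 3.15, 2.83 and 3.23 RPKM in PTKO AA 4wk and 3.23, 1.42 and 2.36 in fl/fl AA 4wk, at least 14.5-fold and 14.3-fold higher than its floor in DMSO (adjusted p = 0.000133 and 0.000689).

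Ligands of Ccr1, a receptor of monocytes and macrophages, and related attractants of T cells formed the next group. Ccl5 (RANTES), made by T cells and injured tubules among others, was at 2.41, 1.23 and 3.55 RPKM in PTKO DMSO libraries, 104, 64.6 and 22.3 in PTKO AA 2wk and 148, 172 and 161 in PTKO AA 4wk. In fl/fl it was at 2.82, 4.54 and 2.38 RPKM in DMSO, 99.5, 150.4 and 14.97 in AA 2wk and 110.4, 76.1 and 92.7 in AA 4wk. The PTKO AA 4wk libraries were the 3 highest of that genotype, and library number 3 was the lowest toxin library in both genotypes. Ccl5 rose by 4.06 ± 0.65 in PTKO (0.000138) and 3.91 ± 0.65 in fl/fl (0.000172) at AA 2wk and by 5.63 ± 0.65 (4.23e-06) and 4.49 ± 0.65 (3.85e-05) at AA 4wk. Ccl9, a rodent ligand of Ccr1, had 0.394, 0.352 and 1.18 RPKM in PTKO DMSO, 43.2, 35.6 and 10.7 in PTKO AA 2wk and 40.1, 47.5 and 39.00 in PTKO AA 4wk. Its fl/fl libraries had 0.3501, 0.573 and 0.231 RPKM in DMSO, 21.2, 37.4 and 2.696 in AA 2wk and 29.7, 15.9 and 24.7 in AA 4wk. Toxin and vehicle libraries did not overlap in either genotype. Ccl9 rose by 4.75 ± 0.65 in PTKO (1.54e-05) and 4.11 ± 0.65 in fl/fl (7.45e-05) at AA 4wk, and by 4.06 and 3.41 at AA 2wk. Ccl6, a related rodent ligand, averaged 129 ± 19.98 RPKM in PTKO AA 4wk and 69.00 ± 20.3 in fl/fl AA 4wk, against 3.93 ± 0.4503 in PTKO DMSO and 3.28 ± 1.29 in fl/fl DMSO (SD, n = 3 each). Ccl3 and Ccl4, attractants of monocytes and T cells, rose in all 4 comparisons too, but by 1.0 to 1.97 and 1.21 to 1.97, and no library exceeded 7.23 and 5.17 RPKM. RefSeq gives Ccl3 and Ccl4 overlapping spans on opposite strands, and whether strand was used in counting is not given in the sources used here.

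Ccr1 rose by 2.99 to 3.68 over the 4 comparisons. Ccl5, Ccl9, Ccl6, Ccl3 and Ccl4 lie at chr11:83525778-83664683 (GRCm38.p6).

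Ligands of Cxcr3, the receptor of activated T and NK cells, are induced by interferon gamma. Cxcl10 had 4.44, 2.29 and 5.34 RPKM in PTKO DMSO, 139, 52.3 and 38.02 in PTKO AA 2wk and 85.2, 79.8 and 86.5 in PTKO AA 4wk. Cxcl10 values in fl/fl were 5.84, 3.24 and 5.17 RPKM in DMSO, 85.1, 149 and 24.5 in AA 2wk and 78.9, 55.7 and 65.5 in AA 4wk. The highest libraries of both genotypes were AA 2wk libraries, and the AA 4wk libraries were closer together. It rose by 3.77 ± 0.53 in PTKO (4.67e-05) and 3.62 ± 0.53 in fl/fl (6.11e-05) at AA 2wk, and by 4.13 ± 0.53 (9.47e-06) and 3.57 ± 0.53 (4.4e-05) at AA 4wk. Cxcl9 was at 1.77, 0.672 and 1.49 RPKM in PTKO DMSO libraries, 98.9, 29.7 and 10.6 in PTKO AA 2wk and 61.1, 69.2 and 60.2 in PTKO AA 4wk. The same gene had 2.06, 0.909 and 1.43 RPKM in fl/fl DMSO, 46.7, 94.2 and 6.08 in fl/fl AA 2wk and 45.96, 35.8 and 35.2 in fl/fl AA 4wk. No toxin library of Cxcl9 overlapped the vehicle libraries. Cxcl9 rose by 4.83 ± 0.77 in PTKO (6.03e-05) and 4.03 ± 0.77 in fl/fl (0.000351) at AA 4wk, and by 3.86 and 3.71 at AA 2wk. Cxcl11, the third gene of this block at chr5:92321331-92363296, is annotated as a polymorphic pseudogene in GENCODE and as a transcribed pseudogene in RefSeq. It rose as well, by 0.89 to 1.098, and did not exceed 2.41 RPKM. Cxcl10 and Cxcl11 overlap Art3 on the other strand.

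The Cxcl10 promoter is shown because it holds matches of several inflammatory motifs in 250 bases. These are the bases before the RefSeq start at chr5:92348890-92349139 (GRCm38.p6, minus strand), with matches of the interferon-stimulated response element (ISRE) and of NF-kB in capitals. The ISRE match lies at -213 to -204 from the start and the NF-kB matches at -159 to -150 and -104 to -94.
Cxcl10: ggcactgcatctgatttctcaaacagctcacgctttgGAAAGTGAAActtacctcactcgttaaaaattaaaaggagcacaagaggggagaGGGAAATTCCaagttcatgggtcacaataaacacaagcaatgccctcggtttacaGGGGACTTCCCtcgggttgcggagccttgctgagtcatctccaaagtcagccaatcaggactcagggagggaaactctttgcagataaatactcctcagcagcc
An AP-1 match (TGANTCA) at -74 to -68 is left in lower case. An ISRE match (GAAA, any 2 bases, GAAA, on either strand) was found in 3 of the 42 members with a promoter window, Ccl19, Cxcl10 and Cxcl14, and in 3.46% of all 27025 genes with one. NF-kB matches, which may overlap each other, were found in 10 of 42 members (7 of 27 ligands and 3 of 15 receptors) and in 8.23% of all genes. AP-1 matched in 6 members and 7.82% of genes, and STAT (TTCNNNGAA) in 4 members and 8.13% of genes. A match describes letters in this window and not a bound site.

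Cxcr3 was at 0.794, 0.455 and 0.695 RPKM in PTKO DMSO libraries, 12.8, 9.22 and 2.36 in PTKO AA 2wk and 18.9, 16.6 and 16.03 in PTKO AA 4wk. In fl/fl cortex Cxcr3 had 0.448, 0.25 and 0.511 RPKM in DMSO, 12.3, 16.01 and 1.75 in AA 2wk and 12.05, 11.8 and 12.9 in AA 4wk. All toxin libraries were above 1 RPKM and all vehicle libraries under it. It rose by 2.25 ± 0.55 in PTKO (0.00282) and 2.61 ± 0.55 in fl/fl (0.000901) at AA 2wk, and by 3.47 ± 0.55 (5.54e-05) and 3.24 ± 0.55 (0.00013) at AA 4wk. T and NK cell markers summed to 3.38 to 4.72 RPKM in PTKO DMSO, 18.05 to 111 in PTKO AA 2wk and 130.3 to 144 in PTKO AA 4wk, and to 2.65 to 4.45, 13.98 to 134 and 87.8 to 102 in the same groups of fl/fl, with no marker at 0. The part of these cells in the Cxcr3 values was not tested.

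The tested neutrophil attractants Cxcl1, Cxcl2 and Cxcl5 were higher at AA 4wk in both genotypes, while their receptor Cxcr2 stayed under the level filter. Cxcl1, which acts on Cxcr2, had 0.192, 0 and 1.91 RPKM in PTKO DMSO, 30.1, 39.8 and 14.1 in PTKO AA 2wk and 37.7, 31.8 and 36.6 in PTKO AA 4wk. In fl/fl libraries it had 0.409, 1.39 and 0.399 RPKM in DMSO, 22.8, 28.05 and 22.3 in AA 2wk and 43.9, 13.6 and 32.9 in AA 4wk. Here fl/fl AA 2wk number 3 was close to number 1, and vehicle and toxin libraries did not overlap. Cxcl1 rose by 4.14 ± 0.45 in PTKO (5.59e-06) and 3.91 ± 0.45 in fl/fl (8.64e-06) at AA 2wk, and by 4.58 ± 0.45 (1e-06) and 4.07 ± 0.45 (3.76e-06) at AA 4wk. Cxcl2 rose in all 4 comparisons by 1.93 to 2.23. Cxcl5 was not called at AA 2wk and rose at AA 4wk, by 1.41 in PTKO and 0.69 in fl/fl, and the change between time points was not called in either genotype (adjusted p = 0.0882 and 0.784). The untested Cxcl3 was at 0 in all 6 DMSO libraries and at 0.448, 0.746 and 0.537 RPKM in PTKO AA 4wk and 0.524, 0.222 and 0.751 in fl/fl AA 4wk. Cxcr2 was at 0.168, 0.374 and 0.359 RPKM in PTKO AA 4wk and 0.0584, 0.0186 and 0.0538 in fl/fl AA 4wk, and Cxcr1 had 1 read in all 18 libraries together. Neutrophil markers summed to 6.55 to 44.8 RPKM in PTKO AA 2wk, 8.36 to 17.9 in PTKO AA 4wk, 2.26 to 6.17 in fl/fl AA 2wk and 5.02 to 7.55 in fl/fl AA 4wk, against 0.589 to 3.85 in PTKO DMSO and 1.09 to 2.48 in fl/fl DMSO. Mpo was at 0 in all 3 libraries of PTKO AA 2wk and of fl/fl DMSO.

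Cxcl1, Cxcl2 and Cxcl3 lie with Cxcl5 and Cxcl15 at chr5:90759298-90905938 (GRCm38.p6), and their promoters are set side by side because they carry the same NF-kB match. Shown are the 120 bases before the RefSeq start of each, all on the plus strand, at chr5:90891125-90891244 for Cxcl1, chr5:90903779-90903898 for Cxcl2 and chr5:90785981-90786100 for Cxcl3, with the match in capitals.
Cxcl1: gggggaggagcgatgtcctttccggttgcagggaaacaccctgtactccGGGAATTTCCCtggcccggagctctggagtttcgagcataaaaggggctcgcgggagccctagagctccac
Cxcl2: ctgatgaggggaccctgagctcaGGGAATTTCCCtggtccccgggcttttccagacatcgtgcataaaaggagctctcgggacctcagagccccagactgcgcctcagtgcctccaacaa
Cxcl3: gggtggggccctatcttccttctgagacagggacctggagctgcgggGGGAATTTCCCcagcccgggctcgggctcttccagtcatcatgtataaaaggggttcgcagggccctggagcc
The match lies at -71 to -61 in Cxcl1, at -97 to -87 in Cxcl2 and at -73 to -63 in Cxcl3, so it is at a like distance in Cxcl1 and Cxcl3 and further out in Cxcl2.

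Ccl20, the ligand of Ccr6 on Th17 cells and B cells, was at 0 in all 6 DMSO libraries. It had 7.06, 10.3 and 1.41 RPKM in PTKO AA 2wk and 5.33, 5.11 and 3.52 in PTKO AA 4wk, and 2.398, 9.57 and 0.601 in fl/fl AA 2wk and 3.18, 2.26 and 4.63 in fl/fl AA 4wk. Every toxin library had reads of it, and its mean at AA 2wk was at least 20.6-fold above its floor in DMSO in PTKO and 17.7-fold in fl/fl. It passed the level filter through toxin libraries only, so this difference is a description. Ccr6 itself did not exceed 1.04 RPKM and was not tested. The Ccl20 promoter is printed as the single NF-kB match of a gene silent in vehicle, 120 bases before the RefSeq start at chr1:83116646-83116765 (GRCm38.p6, plus strand), with the match at -80 to -71 in capitals.
Ccl20: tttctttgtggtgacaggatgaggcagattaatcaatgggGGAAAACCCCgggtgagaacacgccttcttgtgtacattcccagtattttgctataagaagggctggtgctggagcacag

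Of all ligands, membrane-tethered Cx3cl1 had the highest mean RPKM in vehicle in both genotypes. This gene (fractalkine), made by endothelium and tubules, was at 40.1, 42.2 and 38.6 RPKM in PTKO DMSO libraries, 114, 101 and 53.7 in PTKO AA 2wk and 131, 113 and 149.5 in PTKO AA 4wk. In fl/fl cortex it was at 33.9, 48.8 and 29.2 RPKM in DMSO, 146, 109 and 71.5 in AA 2wk and 129, 116 and 111 in AA 4wk. No toxin library lay within the vehicle range of its genotype. Cx3cl1 rose by 1.06 ± 0.27 in PTKO (0.00383) and 1.49 ± 0.27 in fl/fl (0.000328) at AA 2wk, and by 1.67 ± 0.27 (7.42e-05) and 1.67 ± 0.27 (9.68e-05) at AA 4wk. Beside it, injured tubule markers summed to 535 to 1043 RPKM in PTKO DMSO, 10326 to 11636 in PTKO AA 2wk and 9937 to 11620.5 in PTKO AA 4wk, and to 471 to 545, 4646 to 10332 and 7592 to 9918 in the same groups of fl/fl, with no marker of the list at 0. The part of injured tubule cells in the values of Cx3cl1, Cxcl16 and Ccl28 was not tested. Cx3cr1, the receptor of Cx3cl1 on macrophages, had 2.61, 1.95 and 3.17 RPKM in PTKO DMSO, 28.2, 30.9 and 10.5 in PTKO AA 2wk and 44.5, 43.5 and 32.2 in PTKO AA 4wk. In fl/fl Cx3cr1 had 2.02, 2.13 and 1.65 RPKM in DMSO, 16.8, 32.9 and 11.6 in AA 2wk and 40.8, 34.5 and 33.1 in AA 4wk. Vehicle and toxin libraries did not overlap, and the AA 4wk libraries lay above all AA 2wk libraries in both genotypes. Cx3cr1 rose by 2.63 ± 0.35 in PTKO (3.37e-05) and 2.75 ± 0.35 in fl/fl (2.26e-05) at AA 2wk, and by 3.52 ± 0.35 (1.27e-06) and 3.66 ± 0.35 (1.36e-06) at AA 4wk. The pair thus had log2 fold changes of 1.67 for the ligand and 3.52 for the receptor at AA 4wk in PTKO.

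Cxcl16, the ligand of Cxcr6, was at 22.7, 24.4 and 25.7 RPKM in PTKO DMSO, 129, 102 and 71.6 in PTKO AA 2wk and 117, 119 and 109 in PTKO AA 4wk. Its fl/fl libraries were at 23.6, 24.7 and 19.1 RPKM in DMSO, 78.8, 117 and 46.1 in AA 2wk and 109, 75.9 and 91.2 in AA 4wk. Vehicle and toxin libraries were apart in both genotypes. Cxcl16 rose by 1.97 ± 0.26 in PTKO (3.07e-05) and 1.71 ± 0.26 in fl/fl (8.84e-05) at AA 2wk, and by 2.2 ± 0.26 (5.21e-06) and 1.98 ± 0.26 (1.74e-05) at AA 4wk. It overlaps Zmynd15 on the other strand. Cxcr6, of resident and effector T cells, averaged 10.8 ± 0.972 RPKM in PTKO AA 4wk and 8.0 ± 0.599 in fl/fl AA 4wk, against 0.653 ± 0.156 in PTKO DMSO and 0.506 ± 0.201 in fl/fl DMSO (SD, n = 3 each), and rose in all 4 comparisons.

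The ligands of Ccr4, a receptor of Th2 and regulatory T cells, were almost silent in vehicle. Ccl17 had 0.0887, 0 and 0.544 RPKM in PTKO DMSO, 60.9, 34.5 and 13.95 in PTKO AA 2wk and 24.4, 19.7 and 18.6 in PTKO AA 4wk. In fl/fl it had 0, 0.112 and 0.123 RPKM in DMSO, 16.9, 29.5 and 2.03 in AA 2wk and 21.9, 8.58 and 19.2 in AA 4wk. PTKO AA 2wk number 1 was the highest library, and fl/fl AA 2wk number 3 the lowest of the toxin libraries. Ccl17 rose by 4.75 ± 0.66 in PTKO (4.08e-05) and 3.46 ± 0.66 in fl/fl (0.000448) at AA 2wk, and by 4.19 and 3.93 at AA 4wk. Ccl22, its neighbour with Cx3cl1 at chr8:94745684-94812038, rose by 3.17 to 3.905. Xcl1, made by T and NK cells, averaged 13.7 ± 1.203 RPKM in PTKO AA 4wk and 9.42 ± 1.66 in fl/fl AA 4wk, against 0.331 ± 0.204 in PTKO DMSO and 0.508 ± 0.29 in fl/fl DMSO. Its receptor Xcr1, on cross-presenting dendritic cells, averaged 2.13 ± 0.247 RPKM in PTKO AA 4wk and 1.61 ± 0.367 in fl/fl AA 4wk, against 0.256 ± 0.0506 in PTKO DMSO and 0.245 ± 0.137 in fl/fl DMSO. Both rose in all 4 comparisons, as did Cxcl17, a mucosal chemokine.

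Members that fell after the toxin were Cxcl12 and Ccl28 in PTKO and Ccl25 in both genotypes. Cxcl12, which holds Cxcr4-bearing cells in tissues, had 22.3, 25.1 and 20.1 RPKM in PTKO DMSO, 10.8, 5.08 and 4.57 in PTKO AA 2wk and 9.98, 12.3 and 14.4 in PTKO AA 4wk. In fl/fl it was at 18.2, 39.5 and 9.69 RPKM in DMSO, 29.4, 5.45 and 20.5 in AA 2wk and 12.4, 24.8 and 10.6 in AA 4wk. The PTKO toxin libraries were all below the PTKO vehicle libraries, and the fl/fl groups overlapped. In PTKO Cxcl12 fell by 1.67 at AA 2wk (0.0142), and by 1.53 without AA 2wk number 2 (adjusted p = 0.051). The value at AA 4wk was -0.84 ± 0.53 in PTKO (0.168), and in fl/fl -0.33 ± 0.53 at AA 2wk (0.606) and -0.35 ± 0.53 at AA 4wk (0.573). The test of the genotype difference in the 2-week change did not pass for any member. Its receptor Cxcr4 was at 2.06, 1.35 and 2.12 RPKM in PTKO DMSO, 13.4, 9.94 and 7.51 in PTKO AA 2wk and 19.1, 27.1 and 24.5 in PTKO AA 4wk. In fl/fl Cxcr4 was at 1.89, 2.72 and 2.02 RPKM in DMSO, 12.8, 19.3 and 5.05 in AA 2wk and 24.7, 11.3 and 16.8 in AA 4wk. The receptor rose in all 4 comparisons, by 1.97 ± 0.36 in PTKO (0.000352) and 1.902 ± 0.36 in fl/fl (0.000415) at AA 2wk and by 3.11 ± 0.36 (3.89e-06) and 2.48 ± 0.36 (3.51e-05) at AA 4wk, while the ligand did not rise in any. Ackr3, the scavenging receptor of Cxcl12, was at 27.9 to 30.8 RPKM in PTKO AA 4wk and 25.7 to 34.0 in fl/fl AA 4wk, against 34.3 to 41.6 in PTKO DMSO and 37.3 to 39.5 in fl/fl DMSO, and fell by 0.33 in PTKO (0.0231) and 0.31 in fl/fl (0.0372).

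Ccl28, an epithelial ligand of Ccr10, had 7.48, 10.2 and 9.51 RPKM in PTKO DMSO, 3.41, 1.32 and 0.776 in PTKO AA 2wk and 4.45, 4.67 and 2.83 in PTKO AA 4wk. In fl/fl libraries Ccl28 was at 1.99, 1.89 and 6.22 RPKM in DMSO, 3.54, 0.762 and 1.59 in AA 2wk and 1.95, 1.53 and 3.34 in AA 4wk. The PTKO vehicle libraries were the highest 3 of the 18, and the fl/fl groups overlapped. The summed proximal tubule markers given above were lower in every toxin library than in any vehicle library, in both genotypes. The part of proximal tubule cells in the Ccl28 values was not tested. In PTKO Ccl28 fell by 1.93 at AA 2wk (0.0011) and by 1.02 at AA 4wk (0.0346). The call at AA 4wk was lost with pseudocount 0.1 (adjusted p = 0.0741), with pseudocount 0.5 (0.0504), without PTKO DMSO number 2 (0.0893) or number 3 (0.0782), and without PTKO AA 4wk number 1 (0.0508) or number 3 (0.117). Ccl25, the ligand of Ccr9 known from gut and thymus, had 3.19, 3.001 and 4.11 RPKM in PTKO DMSO, 2.56, 3.06 and 2.09 in PTKO AA 2wk and 1.56, 2.504 and 2.14 in PTKO AA 4wk. Its fl/fl values were 4.09, 3.65 and 4.26 RPKM in DMSO, 2.84, 2.55 and 4.096 in AA 2wk and 1.58, 1.997 and 2.96 in AA 4wk. The AA 4wk libraries were below all vehicle libraries in both genotypes. Ccl25 fell by 0.53 in PTKO (0.0159) and 0.68 in fl/fl (0.00446) at AA 4wk, and the PTKO call was lost without PTKO DMSO number 3 (0.0746) or PTKO AA 4wk number 1 (0.0792). Ccl27a, a skin chemokine that overlaps Il11ra1, gave -0.02 and -0.02 at AA 2wk and 0.17 and -0.23 at AA 4wk in PTKO and fl/fl, none called, and the sign of the PTKO value at AA 4wk turned with both other scalings. Cxcl14, an epithelial chemokine high in vehicle, rose at AA 4wk in PTKO by 1.77 (0.0384) and gave 1.67 in fl/fl (0.053). Ccl19, which guides Ccr7-bearing dendritic and T cells, rose at AA 4wk in PTKO by 1.81 (0.0165) and gave 1.45 in fl/fl (0.0508), and Ccr7 rose in all 4 comparisons by 1.59 to 2.86. The eotaxin Ccl11 rose in 3 of the 4 comparisons and gave 1.06 at AA 4wk in fl/fl (0.0574).

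**Figure D4:**
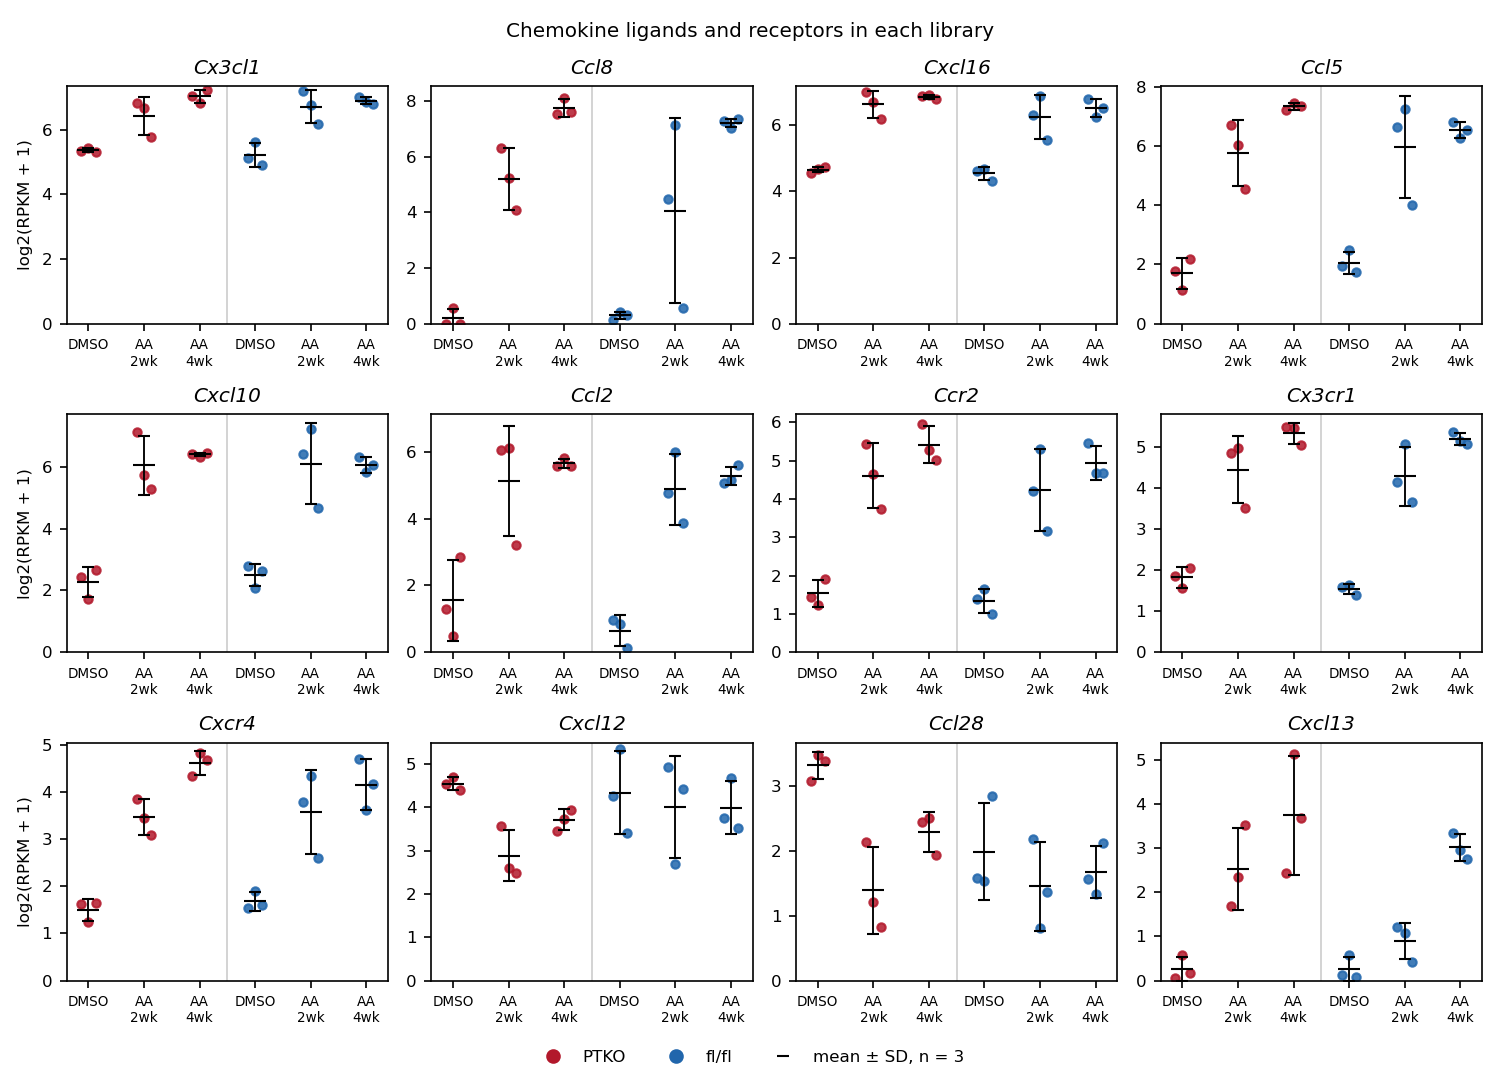
Values of 12 members in every library as log2(RPKM + 1), with PTKO groups left of fl/fl groups in each panel and mean with SD (n = 3) in black. Ccl8 ranges from 0 in DMSO to 279 RPKM in a PTKO AA 4wk library. Cxcl12 and Ccl28 are lower in PTKO toxin libraries than in PTKO DMSO libraries. The highest Cxcl13 value, 34.3 RPKM, is in a PTKO AA 4wk library, and the AA 4wk libraries of both genotypes overlap for this gene.

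Over the remodeling period the test called few members. In PTKO the test of AA 4wk against AA 2wk called 1 member, Ccr4, beside 4.16% of all genes tested (2.6% higher and 1.56% lower). At an unadjusted p under 0.05 there were 14 members, 7 ligands and 7 receptors, beside 3670 of 13624 genes. Ccr4 was at 1.55, 1.14 and 1.21 RPKM in PTKO AA 4wk libraries, against 0.644, 0.525 and 0.116 in PTKO AA 2wk libraries. The groups did not overlap, and the log2 fold change was 0.70 ± 0.19 (adjusted p = 0.0468). Only 4 libraries reached 1 RPKM of Ccr4, all 3 of PTKO AA 4wk among them and none of PTKO AA 2wk. Ccr4 thus passed the level filter through the group where it is higher, so its p-value is a description. The call is a marginal one. Same-numbered libraries of these groups correlated at 0.101 to 0.243. AA 2wk number 1 correlated more with AA 4wk number 2 (0.152) than with number 1 (0.101), so pairing by number is not shown. The replicate block is given as an alternative. The count of called members was 2 with the block over all libraries, beside 11.5% of all genes. It was 1 with a shared term for both AA 2wk libraries numbered 3. With the block in a fit of the compared groups alone it was 0, and Ccr4 had an adjusted p of 0.194. The count was 0 to 8 when 1 library was left out, 8 being without fl/fl AA 2wk number 3, beside 11.8% of all genes, and 3 without both AA 2wk libraries numbered 3, beside 5.98%. In fl/fl no member was called by limma, beside 0.125% of all genes (0.0661% higher and 0.0587% lower). By unadjusted p under 0.05 there were 6 members, beside 1672 of 13624 genes. Calls in fl/fl numbered 0 with voom on the recovered reads and 12 with sample quality weights, beside 26.2% of all genes. They numbered 2 without fl/fl AA 2wk number 2, beside 1.18%.

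Libraries of AA 4wk lay above all AA 2wk libraries for 11 members in PTKO, 4 ligands and 7 receptors, beside 21.1% of all genes tested, and for 2 members in fl/fl, beside 10.4%. In PTKO these were Ccl8, Ccl5, Ccl6 and Cxcl14 among ligands and Cxcr4, Ccr7, Ccr4, Cx3cr1, Ccr8, Xcr1 and Cxcr3 among receptors, and in fl/fl they were Cxcl13 and Cx3cr1. No member lay below in either genotype, beside 8.52% in PTKO and 10.4% in fl/fl. The median log2 difference was 0.53 for ligands and 0.89 for receptors in PTKO, against 0.10 over all genes, and 0.24 and 0.57 in fl/fl, against 0.01. The libraries numbered 3 are the lowest AA 2wk library for most members, and these medians include them.

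The comparison of genotypes asks whether chemokine RNA differs between PTKO and fl/fl cortex, whose Klf15 levels are given above. In no treatment did a member pass the test. In DMSO 0.0367% of all genes were called (0.0147% higher and 0.022% lower). By unadjusted p under 0.05 there was 1 member, beside 673 of 13624 genes. Ccl28 had 7.48, 10.2 and 9.51 RPKM in PTKO, against 1.99, 1.89 and 6.22 in fl/fl, with no overlap (1.33 ± 0.41, adjusted p = 0.698). This was the single member, beside 7.88% of all genes, with every PTKO library above every fl/fl library in DMSO, and none lay below, beside 5.77%. Ccl27a was at 1.802, 0.997 and 1.09 RPKM in PTKO, against 1.74, 3.17 and 1.08 in fl/fl (-0.34 ± 0.23, adjusted p = 1). Ccl2, given above, had 0.91 ± 0.71 (1), with both groups overlapping. That value was 0.26 without PTKO DMSO number 3, 1.44 without PTKO DMSO number 2 and 1.83 with voom, and the value of Ccl27a was -0.07 without fl/fl DMSO number 2 and -0.57 without number 3.

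At AA 2wk 0.00734% of all genes were called, no member among them. By unadjusted p under 0.05 there were 4 members, beside 913 of 13624 genes. Cxcl13, which draws B cells through Cxcr5, was at 2.25, 4.13 and 10.5 RPKM in PTKO AA 2wk, against 1.304, 1.1 and 0.345 in fl/fl AA 2wk. Every PTKO library was above every fl/fl library, which held for 1 member, beside 1.95% of all genes, and the reverse held for 1, Ccl27a, beside 4.74%. The log2 difference of Cxcl13 was 1.63 ± 0.53 with an adjusted p of 0.515, and 0.89 without both libraries numbered 3. Against DMSO Cxcl13 rose at AA 2wk in PTKO by 2.26 ± 0.53 (0.00232) and gave 0.64 ± 0.53 in fl/fl (0.308), and it rose in both at AA 4wk, where it had 4.41, 34.3 and 11.8 RPKM in PTKO and 9.23, 6.76 and 5.78 in fl/fl, against 0.0393, 0.49 and 0.1203 in PTKO DMSO and 0.0954, 0.494 and 0.0544 in fl/fl DMSO. PTKO AA 2wk number 3, the lowest of its group for 39 members, is the highest here. Ccl3 was at 5.17, 7.23 and 1.94 RPKM in PTKO AA 2wk, against 2.21, 2.72 and 0.915 in fl/fl AA 2wk (0.90 ± 0.34, 0.631), and Ccl17 gave 1.44 ± 0.66 (0.734). The value of Ccl17 was 0.46 without fl/fl AA 2wk number 3 and 2.12 without number 2, and that of Ccl3 was 0.58 without PTKO AA 2wk number 2 and 1.33 without number 3. With sample quality weights 13 members were called at AA 2wk, 12 higher and 1 lower in PTKO, beside 4.19% of all genes higher and 7.74% lower, among them Ccl3 (adjusted p = 0.00455) and Ccl17 (0.00962). With a replicate block the count stayed at 0. Same-numbered AA 2wk libraries correlated at 0.431 to 0.663, but fl/fl number 2 correlated more with PTKO number 1 (0.529) than with PTKO number 2 (0.431).

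At AA 4wk most members had higher mean values in PTKO, and none passed the test. No member was called, beside 0.00734% of all genes, and voom on the recovered reads called 0. By unadjusted p under 0.05 there were 2 members, beside 823 of 13624 genes. The log2 difference was above 0 for 40 of 42 members, all but Ccl25 and Cxcl12, beside 7883 of 13624 genes. Its median was 0.45 over the members, against 0.03 over all genes tested. The median was 0.51 for ligands and 0.36 for receptors. In 15 members every PTKO library was above every fl/fl library, beside 14.1% of all genes tested, and in none was it below, beside 9.73%. They included Xcl1, Ccl7, Ccl12, Ccl8, Ccl1, Ccl5, Ccl9, Ccl6, Ccl4, Cxcl14, Cxcl9 and Cxcl10 among ligands and Cxcr6 and Cxcr3 among receptors. The members share cells and libraries, so their directions are not independent of each other. The smallest unadjusted p-values belonged to other genes. Cxcl5 was at 0.8597, 4.13 and 1.48 RPKM in PTKO AA 4wk, against 0.966, 0.376 and 0.561 in fl/fl AA 4wk (0.83 ± 0.28, adjusted p = 0.812). Only 3 libraries reached 1 RPKM of Cxcl5, all of them PTKO toxin libraries. It thus passed the level filter through the genotype where it is higher, and its genotype value is a description. Cxcl17 was at 6.14, 10.2 and 11.98 RPKM in PTKO, against 6.39, 1.79 and 4.96 in fl/fl (1.03 ± 0.47, 0.816), and Ccl3 at 4.54, 4.81 and 2.31 RPKM in PTKO, against 2.25, 3.36 and 1.52 in fl/fl (0.52 ± 0.34, 0.833). All 3 overlapped between genotypes. Without fl/fl AA 4wk number 2 the value of Cxcl17 was 0.61, and without number 3 that of Ccl3 was 0.33.

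Macrophage and monocyte markers summed to 3018 to 4282 RPKM in PTKO AA 4wk libraries, against 1869.5 to 2857 in fl/fl AA 4wk libraries, and T and NK cell markers to 130.3 to 144, against 87.8 to 102. Dendritic cell markers without Xcr1 summed to 42.4 to 54.99 RPKM in PTKO AA 4wk, against 29.7 to 44.8 in fl/fl AA 4wk. B and plasma cell markers ran the other way, at 31.8 to 42.7 RPKM in PTKO, against 75.3 to 149.9 in fl/fl. These sums were apart in DMSO too, at 7.49 to 12.2 RPKM in PTKO, against 15.5 to 20.1 in fl/fl. None of the tested markers of these lists was called between genotypes at AA 4wk. The part of these cells in the genotype values was not tested. The intervals of single members were wide: the 95% interval of Ccl8 at AA 4wk ran from -1.72 to 2.81 and that of Ccr2 from -0.54 to 1.504 on the log2 scale. The interaction tests, which ask whether the change differs between genotypes, called no member at AA 2wk (0.0147% of all genes called), AA 4wk (0.00734%) or over remodeling (0.0%). Unadjusted p-values under 0.05 numbered 2, 0 and 0 among the members, beside 730, 635 and 442 of 13624 genes. With voom 0 members were called in each.

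**Figure D5:**
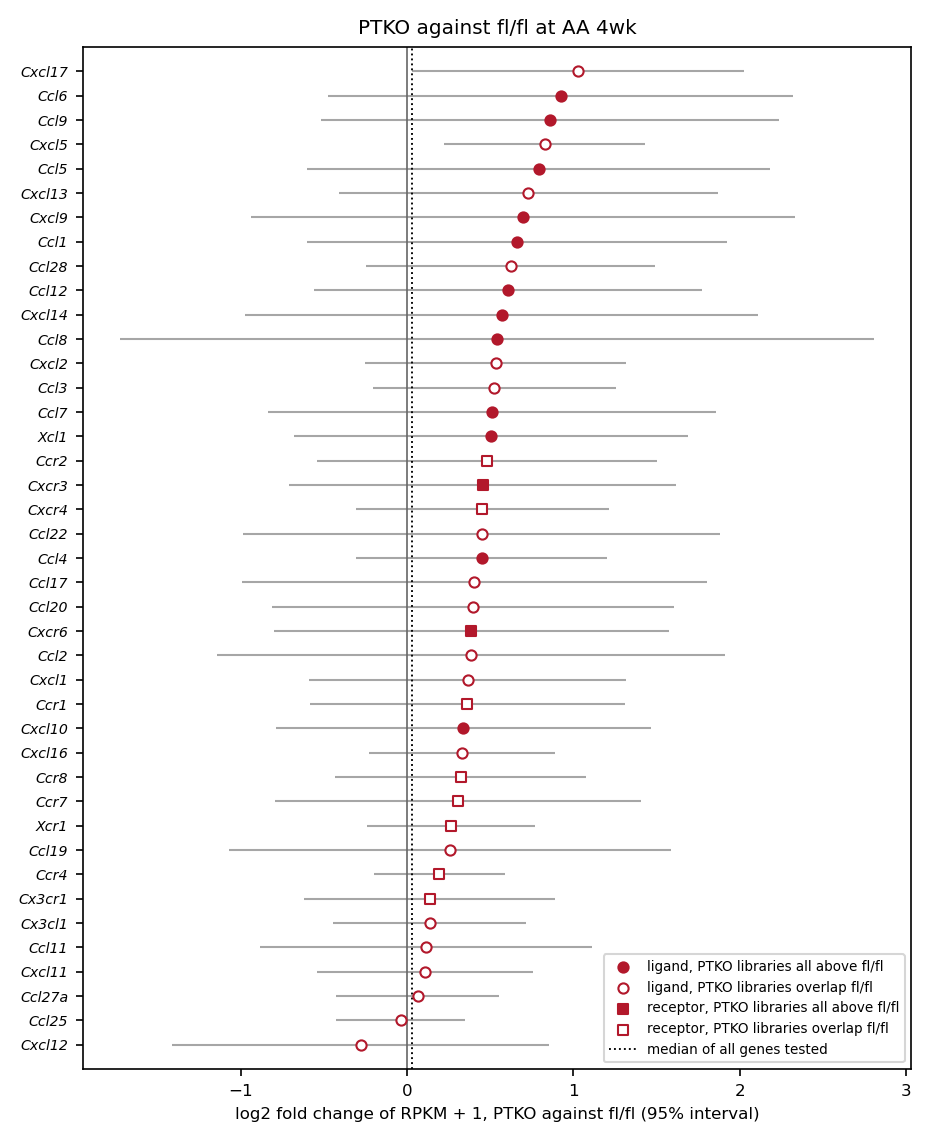
Log2 fold change of RPKM + 1 in PTKO against fl/fl at AA 4wk (horizontal axis) for tested members, with 95% intervals. Filled symbols mark members whose PTKO libraries all lie above the fl/fl libraries; all points shown but Ccl25 and Cxcl12 lie above 0, most intervals include 0, and the dotted line is the median of all genes tested, 0.03.

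Other genes of the pathway were taken from a list of other ligands, atypical receptors, signalling proteins, desensitising kinases, processing enzymes and inducers, of which 38 of 42 in the table were tested. How many of these passed the level filter only through toxin libraries was not counted. Their counts, fold changes and p-values against DMSO are therefore given as descriptions. At AA 2wk 31 rose and 0 fell in PTKO, beside 45.9% and 14.3% of all genes tested, and 31 rose and 0 fell in fl/fl, beside 50.4% and 12.2%. At AA 4wk 31 rose and 1, Ackr3, fell in each genotype, beside 55.0% and 17.3% in PTKO and 51.9% and 14.3% in fl/fl. The largest changes at AA 4wk were those of Rac2, the haematopoietic Rac GTPase that drives leukocyte movement, at 4.04 ± 0.53 in PTKO (1.16e-05) and 3.79 ± 0.53 in fl/fl (2.81e-05), and of the platelet chemokine Pf4, at 3.82 ± 0.35 (6.2e-07) and 3.77 ± 0.35 (9.3e-07). Dock2, an activator of Rac in leukocytes, rose by 3.498 and 2.87, and Rgs1, which damps chemokine receptor signalling, by 3.37 and 2.88. At AA 2wk Pf4 and Rac2 also led in both genotypes, followed by Il1b (2.85) and Dock2 (2.52) in PTKO and by the NF-kB subunits Nfkb2 (2.51) and Relb (2.495) in fl/fl. Among the atypical receptors Ackr1, Ackr2 and Ackr4 stayed under the level filter, and Ccrl2 was not called in any toxin comparison.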

How the data were processed

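RNA from perfused kidney cortex was sequenced as stranded total RNA libraries (TruSeq), per the labels' protocols. The authors deposited 1 matrix of RPKM values for 24062 genes in 18 libraries. Per the submitters' processing notes, bcl2fastq 2.19 and kallisto were used with mm10, with no version of kallisto listed. Which tool made the RPKM values, and whether strand was used in counting, is not given in the sources used here, and RPKM does not correct for a change in total RNA per cell.

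Levels were tested as log2(RPKM + 1) with limma 3.58.1 (R 4.3.3, statmod 1.5.0), with 6 group means, intensity trend and robust moderation. Genes needed 1 RPKM in at least 3 libraries, which left 13624. Tests were two-sided, p-values were adjusted by Benjamini-Hochberg over all genes tested, and a gene was called at an adjusted p under 0.05. Fold changes are on the log2(RPKM + 1) scale and understate the change of low genes. An exact permutation test of 3 against 3 libraries cannot go below p = 0.1, so none was run. Whole reads were recovered from the steps of the deposited RPKM values: for 100% of the 17579 genes above 0 in at least 6 libraries they came out whole within 0.02 reads, and these reads were used for depth, floors (3 reads) and voom. Floors and 95% intervals cover counting error and library spread only. Scripts were tested on simulated data.

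Members and gene lists were chosen with earlier results of these data known. Per-library values are given for the 5 ligands and 5 receptors highest on average, the 5 largest called changes in each direction per toxin comparison, every call in the remodeling and genotype comparisons, and the 3 smallest unadjusted p-values where none was called; other members named were chosen by role after their values were seen. Values of 1 receptor that this rule names are not reported here, and it is not drawn in the plots of single members; counts, medians and sums include it. Promoter sequences are from RefSeq (GRCm38.p6), where 42 of 58 members have a window, and positions are from the same annotation, where 57 were placed. Same-numbered libraries deviated together (every pair's correlation over 0.1) for the AA 2wk groups of both genotypes (0.431 to 0.663) and for PTKO AA 2wk with PTKO AA 4wk (0.101 to 0.243), and not for the other pairs of groups. In both cases some libraries of unlike number correlated more than a same-numbered pair (up to 0.529 and 0.152), so pairing by number is not shown. Alternatives covered filters, pseudocounts, scaling, voom, the variance model, the libraries fitted, the replicate block and leaving out each library.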

Additional observations from a re-analysis of the deposited data

How the results depend on the processing

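Counts of called members in the 4 toxin comparisons stayed within 1.5 times their values. At AA 2wk they were 33 to 40 in PTKO (30 to 39 when 1 library was left out) and 31 to 38 in fl/fl (29 to 36), and at AA 4wk 37 to 46 in PTKO (35 to 40) and 34 to 42 in fl/fl (35 to 39), where fewer or more members were tested under other filters. The remodeling counts did not hold. Ccr4, with 4 libraries at 1 RPKM, was not tested under the filter of 6 libraries. In PTKO the count of 1 became 0 with at least 1 RPKM in 6 libraries, with pseudocounts 0.1 and 0.5, with median-of-ratios scaling, quantile normalization, voom and a fit of the compared groups alone, 4 with sample quality weights (beside 14.2% of all genes), 3 without both AA 2wk libraries numbered 3, and 0 to 8 when 1 library was left out. With the replicate block it was 2 over all libraries and 0 in the compared groups alone, a fit chosen after seeing the data; the block moved no other count of calls by over 1.5 times. In fl/fl the count of 0 became 12 with sample quality weights (8 higher and 4 lower, beside 11.6% and 14.7% of all genes) and 0 to 2 when 1 library was left out. Between genotypes at AA 2wk the count of 0 became 13 with sample quality weights, beside 11.9% of all genes. The cause was not tested. Counts for genotype in DMSO and at AA 4wk and for the interactions were 0 under every alternative run. Of 67 results for named members, 60 kept their direction and side of the threshold under every alternative, 5 lost their call under at least 1 (Ccl8 at AA 2wk in fl/fl, Cxcl12 at AA 2wk in PTKO, Ccl28 and Ccl25 at AA 4wk in PTKO, and Ccr4 over remodeling in PTKO), 2 gained 1 (Ccl3 and Ccl17 between genotypes at AA 2wk), and 0 reversed. The smallest library, of 10980643 reads, limits members at a few reads, such as Cxcr1.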
